A study of Mus musculus with 12 samples.

Results

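Broad H3K27ac domains of the mouse embryo at early headfold were defined as the peaks of 5000 bp or more in the H3K27ac list of that stage, and 385 of its 33068 peaks met this width (1.16%). The members were selected on a measured value, their width in the EHF list, so their width, their fold and the H3K27ac coverage at EHF are descriptions and support nothing. Of the 385 domains, 384 lay on chromosomes 1 to 19 and X and were followed through the other lists, and 1 lay on an unplaced sequence of chromosome 4. The samples were single cells of C57BL/6 embryos, profiled with CoBATCH: Tn5 transposase is guided by an antibody and cuts chromatin that carries a histone mark. Embryos were staged by morphology as Pre_PS (pre-streak, E6.0), ES (early streak, E6.0 and E6.5), MS (mid-streak, E6.0 and E7.0), LS (late streak, E7.0 and E7.25), OB (no allantoic bud, E7.25 and E7.5) and EHF (early headfold, E7.5), and H3K27ac and H3K4me1 were mapped at each. No group carried a transgene, deletion or treatment in the labels. Extraembryonic parts were dissected away at the first 4 stages per the labels, which say nothing of this for OB and EHF. Each stage and mark had 1 peak list that pools its cells, so the values below have no replicate check, no test between stages was possible, and signal in a subset of cells cannot be told apart from weak signal in all cells.

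H3K27ac, acetylation of lysine 27 of histone H3, marks active promoters and enhancers, and H3K4me1, monomethylation of lysine 4, marks enhancers and the flanks of promoters, whether active or not. Most H3K27ac peaks are narrow. Long unbroken stretches of the mark have been described at genes with cell type specific expression, where they often join a promoter with enhancers nearby, and also inside gene-rich, strongly transcribed neighbourhoods. From the pre-streak to the headfold stage, epiblast cells pass through the primitive streak to form mesoderm and endoderm, while those that stay in front form neural and surface ectoderm.

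The start of a protein-coding gene was listed inside 173 of the 384 domains, and 6 such promoters are shown because their domains carry the results below. They are those of Hes7 and Lfng, which act in the Notch-driven segmentation clock, of the secreted signals Wnt11 and Bmp4, of Zbtb7a, a zinc finger repressor with the widest single-gene domain that holds its start, and of Irx3, a homeobox factor of the neural plate. Each window runs from 250 bases before to 50 bases after the start (RefSeq, GRCm38.p6), 5′ to 3′ on the gene's strand, and capitals mark the GC box, GGGCGG or its reverse complement, which SP and KLF zinc finger factors can bind.
Hes7, plus strand, chr11:69120203-69120502: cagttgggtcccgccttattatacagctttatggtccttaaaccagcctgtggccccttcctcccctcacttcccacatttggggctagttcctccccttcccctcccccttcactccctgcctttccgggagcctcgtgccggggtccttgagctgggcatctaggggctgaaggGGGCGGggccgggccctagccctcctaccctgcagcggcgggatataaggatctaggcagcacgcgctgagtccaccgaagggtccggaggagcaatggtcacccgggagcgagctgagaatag
Lfng, plus strand, chr5:140607091-140607390: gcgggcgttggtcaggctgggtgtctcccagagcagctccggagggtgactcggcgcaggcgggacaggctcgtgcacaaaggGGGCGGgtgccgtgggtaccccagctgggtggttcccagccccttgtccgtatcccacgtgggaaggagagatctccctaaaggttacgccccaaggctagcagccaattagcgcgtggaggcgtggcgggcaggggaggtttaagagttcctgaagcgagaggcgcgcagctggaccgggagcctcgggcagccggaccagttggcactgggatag
Wnt11, plus strand, chr7:98834862-98835161: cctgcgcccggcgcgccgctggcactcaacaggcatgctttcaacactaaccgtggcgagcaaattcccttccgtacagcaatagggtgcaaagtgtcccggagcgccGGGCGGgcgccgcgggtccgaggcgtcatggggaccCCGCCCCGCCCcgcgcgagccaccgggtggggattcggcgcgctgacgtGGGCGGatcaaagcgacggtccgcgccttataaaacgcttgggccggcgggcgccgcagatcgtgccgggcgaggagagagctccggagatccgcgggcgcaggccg
Bmp4, minus strand, chr14:46390620-46390919: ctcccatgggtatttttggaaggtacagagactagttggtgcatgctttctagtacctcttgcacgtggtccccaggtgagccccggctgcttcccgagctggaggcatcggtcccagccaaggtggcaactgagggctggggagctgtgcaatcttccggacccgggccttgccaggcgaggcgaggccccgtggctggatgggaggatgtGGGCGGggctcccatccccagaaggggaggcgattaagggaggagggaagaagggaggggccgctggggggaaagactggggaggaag
Zbtb7a, plus strand, chr10:81136021-81136320: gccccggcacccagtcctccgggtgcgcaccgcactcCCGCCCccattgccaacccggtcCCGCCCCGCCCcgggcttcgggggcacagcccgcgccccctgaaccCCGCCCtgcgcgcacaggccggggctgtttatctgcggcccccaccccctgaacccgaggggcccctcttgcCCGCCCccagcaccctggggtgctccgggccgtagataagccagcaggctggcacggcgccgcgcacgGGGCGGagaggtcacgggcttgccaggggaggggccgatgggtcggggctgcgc
Irx3, minus strand, chr8:91801605-91801904: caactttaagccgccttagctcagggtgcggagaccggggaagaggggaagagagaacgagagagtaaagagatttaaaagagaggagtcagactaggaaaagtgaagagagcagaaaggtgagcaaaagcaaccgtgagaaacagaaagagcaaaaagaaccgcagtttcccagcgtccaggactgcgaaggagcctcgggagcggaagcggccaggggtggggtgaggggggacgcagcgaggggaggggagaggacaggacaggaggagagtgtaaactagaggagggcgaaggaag

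Zbtb7a had 6 matches to the GC box and 31 CG dinucleotides, and Wnt11 had 4 matches and 45 CG dinucleotides. Hes7, Lfng and Bmp4 had 1 match each, with 14, 22 and 12 CG dinucleotides, and the Irx3 window had none and 14. Over all 255 windows whose start lay in a domain (208 genes), 69.0% held a GC box on either strand, against 71.4% of the 12030 windows inside narrower EHF H3K27ac peaks and 46.7% of all 21045 windows of coding genes. The median number of CG dinucleotides per window was 21, 22 and 13 in the same order. The TATA box, TATAAA, stood in 5.10%, 5.54% and 12.7% of these windows, and the CCAAT box, CCAAT, in 33.3%, 36.3% and 38.5%. The ETS motif CCGGAAG stood in 16.1%, 17.8% and 11.7%, the E box CACGTG in 10.2%, 10.6% and 7.91%, and the NRF1 motif GCGCATGCG in 4.31%, 3.83% and 2.37%. Both strands were searched, no motif contains another, and matches of different motifs may share bases. The promoters in domains thus had nearly the same letters as those in narrower peaks of the same list, and both differed from the whole set of windows.

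MicroRNAs, short RNAs that silence matching messengers, were encoded in some domains: 19 of the 1005 hairpins in RefSeq's listing (1.89%) overlapped 17 domains, close to the share of coding genes. The gene table adds Mir124a-3 and Mir6948. Mir338 and Mir3065 lie on opposite strands in the 14.0 kb domain of Aatk, a brain kinase gene, and Mir191 and Mir425 in the 9.65 kb domain of Ndufaf3, Dalrd3 and Wdr6. Mature sequences of some of the hairpins are shown, among them the only 2 that share a seed. The seed (bases 2 to 8), which pairs with targets, is in capitals.
miR-26b-5p, plus strand, chr1:74394324-74394344: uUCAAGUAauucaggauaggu
miR-191-5p, plus strand, chr9:108568325-108568347: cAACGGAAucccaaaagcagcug
miR-425-5p, plus strand, chr9:108568789-108568811: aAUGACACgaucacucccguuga
miR-330-3p, plus strand, chr7:19181525-19181547: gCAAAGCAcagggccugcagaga
miR-338-3p, minus strand, chr11:120014781-120014802: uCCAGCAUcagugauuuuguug
miR-3065-5p, plus strand, chr11:120014780-120014801: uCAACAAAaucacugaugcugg
miR-7032-5p, plus strand, chr5:123996857-123996882: cCCAGGGUgguccccgagaggguggu
miR-6990-5p, minus strand, chr19:6914261-6914281: cCCAGGGUgagucagggcucu

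The domains spanned 2.74 Mb, 7.56% of the 36.2 Mb covered by the EHF H3K27ac list. Their widths ran from 5.00 to 29.7 kb with a median of 6.29 kb (quartiles 5.56 and 7.91), and 33 reached 10 kb. Their median fold, the authors' ratio of fragments in a peak to the local background, was 10.6, against 6.91 for all other EHF peaks, 14.3 for the 9510 peaks of 1 to 2 kb, 11.1 for the 3256 peaks of 2 to 5 kb and 5.18 for the 19881 peaks under 1 kb. Of the 1000 EHF peaks with the highest deposited −log10 q, 2 were domains, while 304 of the 384 domains (79.2%) lay in the upper 50% of that ranking. The narrowest member was the 5002 bp domain of Wnt11, with a fold of 11.2. Just under the limit were peaks of 4999 bp at Skor1 and at Efna3 and of 4998 bp at Ache, and H3K27ac at ES covered 100%, 99.5% and 100% of them.

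The sites of the EHF domains were already covered by H3K27ac from the early streak on, and by H3K4me1 as well. Peaks of the other H3K27ac lists covered 33.8% of the domains' bases at Pre_PS, 92.7% at ES, 89.7% at MS, 93.5% at LS and 89.3% at OB. H3K4me1 peaks covered 40.1%, 93.5%, 90.6%, 96.7%, 97.1% and 91.1% at Pre_PS, ES, MS, LS, OB and EHF. From ES on, the coverage moved within 89.3 to 97.1%, and the Pre_PS values stood far below all others for both marks. The median domain was covered by H3K27ac over 30.1% of its bases at Pre_PS, 98.5% at ES, 96.7% at MS, 99.2% at LS and 97.1% at OB.

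At the other stages, 101, 382, 377, 383 and 375 of the 384 domains had at least 50% of their bases in H3K27ac peaks, in the order Pre_PS, ES, MS, LS and OB. These are 26.3%, 99.5%, 98.2%, 99.7% and 97.7% of the domains, and over all 33031 EHF H3K27ac peaks the shares were 26.3%, 82.0%, 73.9%, 87.1% and 80.8%. For H3K4me1 the numbers were 109, 382, 379, 384, 384 and 378 from Pre_PS to EHF (28.4%, 99.5%, 98.7%, 100%, 100% and 98.4%), against 29.8%, 88.9%, 84.6%, 91.8%, 92.2% and 82.7% of all EHF H3K27ac peaks. At Pre_PS the Wilson interval of the H3K27ac share at 95% confidence ran from 22.1 to 30.9%, which covers counting error only. Peaks of the middle widths came close to the domains from ES on: at ES, 94.1% of the peaks of 2 to 5 kb and 93.6% of those of 1 to 2 kb were at least 50% covered, and 74.2% of those under 1 kb. At Pre_PS the order by width was another, with 51.5% of peaks of 1 to 2 kb, 38.0% of those of 2 to 5 kb, 26.3% of domains and 12.2% of peaks under 1 kb.

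The Pre_PS lists had the lowest background at their weakest peaks, a value that stood in for the unknown library depth. It was 0.0499 fragments for H3K27ac and 0.0144 for H3K4me1, against 0.211 to 0.330 and 0.164 to 0.347 at later stages. The Pre_PS lists covered 14.3 and 23.4 Mb, against 35.9 to 42.1 and 39.1 to 51.3 Mb. The part of depth in the low Pre_PS coverage was not tested. With each H3K27ac list cut to as many top peaks as the Pre_PS list holds (13398), the share of domains at least 50% covered was 63.0% at ES, 65.4% at MS, 64.3% at LS and 65.1% at OB, against 26.3% at Pre_PS. The cut matched peak number only: the cut ES, MS, LS and OB lists covered 19.3 to 20.8 Mb, against 14.3 Mb at Pre_PS. The same number of top peaks of the EHF list itself held 247 of the 384 domains and 64.9% of their bases.

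**Figure D1:**
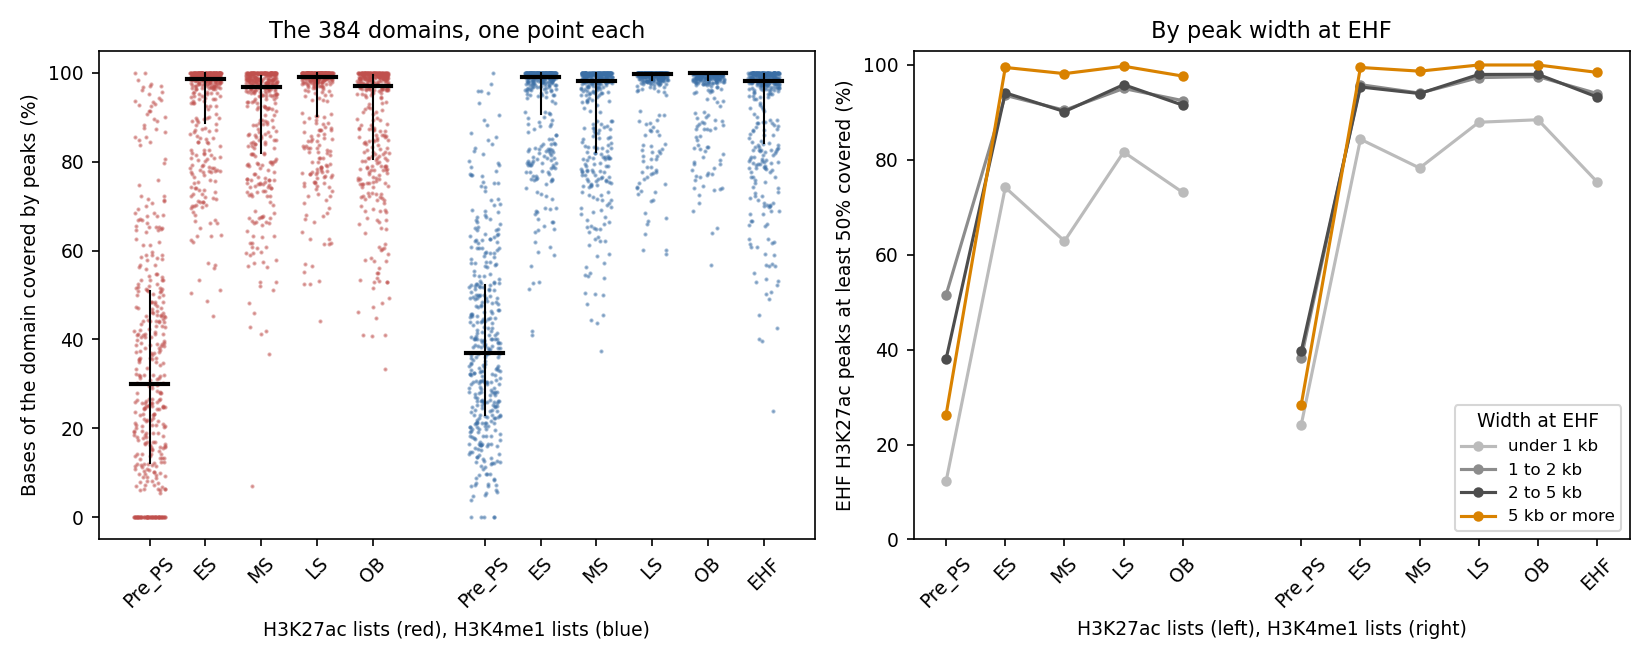
The left panel plots the share of each of the 384 domains that lies in peaks of each other list (y axis, percent of bases), with a bar at the median and a line between the quartiles. The right panel plots the percent of EHF H3K27ac peaks at least 50% covered in each list, by width at EHF: domains were at 97.7 to 99.7% in the H3K27ac lists from ES to OB and at 26.3% at Pre_PS.

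Most domains were also met by a broad peak at each stage from ES to OB. Sharing 1 base was enough for this, so such a peak need not span the domain. At OB, a peak of 7275 bp met the Dgkz domain, of which H3K27ac covered 40.9%. A peak of 5000 bp or more overlapped 39 domains at Pre_PS, 317 at ES, 289 at MS, 321 at LS and 285 at OB in the H3K27ac lists (10.2%, 82.6%, 75.3%, 83.6% and 74.2%). Over all EHF H3K27ac peaks, domains included and most of them narrower, such peaks overlapped 0.191%, 2.39%, 2.01%, 2.00% and 1.44%. At each of ES, MS, LS and OB, 227 of the 384 domains were met by a peak this wide, against 0.911% of all EHF peaks (301). The overlapping peak was wider than the domain itself in 181 cases at ES, 138 at MS, 199 at LS and 130 at OB. Seen from the other side, 317 of the 535 broad H3K27ac peaks of ES (59.3%) and 287 of the 381 of OB (75.3%) overlapped an EHF domain, and of the bases of the broad ES peaks 83.5% lay in EHF peaks of any width. In Plec, the gene of plectin, a linker of the cytoskeleton, 3 EHF domains of 7.43, 7.35 and 6.42 kb were met by an ES peak of 38260 bp, and the widest peaks over them at OB measured 12879 to 15977 bp.

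At Pre_PS, 33 domains (8.59%) were at least 80% covered by H3K27ac, against 10.3% of all EHF peaks. That of Irs2, an adaptor of the insulin receptor, and 1 of the 3 of Bcor, a Polycomb corepressor, were covered over 100% of their bases, while the other 2 of Bcor were covered over 51.2% and 83.7%. Dlx2, a homeobox factor, was covered over 97.2%, Hic1, a zinc finger repressor, over 96.8%, Lfng over 95.3%, Bcl11a, a zinc finger factor, over 93.9%, Ptch1, the Hedgehog receptor, over 93.7%, and Ccnd1, cyclin D1, over 93.0%. These 8 domains, chosen for naming after their values were seen, were covered over 92.4% or more at ES, MS, LS and OB. No H3K27ac base was covered at Pre_PS in 58 domains (15.1%), among them those of Bmp4, Fgfr3, Lama5 and Sirt6, against 65.2% of all EHF peaks, most of which are narrower. For H3K4me1 at Pre_PS, 5 domains (1.30%) were at 0, against 49.0% of all EHF peaks, most of which are narrower. Of the peaks in that H3K4me1 list, 67.3% were its weakest, read as a pileup of 1 fragment. Without the weakest peaks of each Pre_PS list, 61 domains were at 0 for H3K4me1 and 74 for H3K27ac.

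The 22 domains that no other H3K27ac list met with a peak of 5000 bp or more were partly covered at each later stage, not absent. That of Wnt11 was covered over 51.5%, 63.5%, 60.7%, 67.7% and 69.0% from Pre_PS to OB, while H3K4me1 covered 96.8 to 98.7% of it from ES to EHF. Foxf1, a forkhead factor of lateral plate mesoderm, stood at 43.4%, 69.7%, 69.0%, 75.3% and 72.6%. Nkx2-2, a homeobox factor of the ventral neural tube, stood at 39.9%, 85.2%, 83.1%, 83.5% and 82.3%. Col1a1, a chain of type I collagen, stood at 18.5%, 77.9%, 59.7%, 73.4% and 69.2%. Dlx3, a homeobox factor of surface ectoderm, stood at 30.1%, 78.0%, 75.3%, 78.2% and 78.2%. Before EHF the widest H3K27ac peak over these sites measured 1874 bp at Wnt11, 3236 bp at Foxf1, 3927 bp at Col1a1, 4184 bp at Dlx3 and 4821 bp at Nkx2-2. All 5 domains lay between 5.00 and 5.94 kb, near the width limit, and they were chosen for naming after their values were seen. Others of the 22 were wider, such as those with Mir3089 (9.93 kb), of Prr12 and Prrg2 (9.4 kb) and of Gga1 (8.12 kb). With a limit of 4000 bp for the overlapping peak the 22 became 10.

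Coverage was lowest at the rims. In the outermost 5% of the domains' width on each side, H3K27ac covered a mean of 84.0% of the bases at ES, 75.9% at MS, 88.4% at LS and 81.3% at OB, against 94.8%, 91.9%, 94.5% and 90.4% next to the centre. In the first 0.5 kb outside, where the EHF list covered 0%, the means were 23.3%, 17.1%, 21.4% and 15.2% for H3K27ac. For H3K4me1 they were 27.3% at ES, 24.2% at MS, 31.1% at LS, 32.3% at OB and 17.5% at EHF. From 1 to 1.5 kb outside, H3K27ac means lay between 8.53% at OB and 13.1% at ES. Between 4.5 and 5 kb they lay at 28.3 to 31.8%. The EHF list shows the same dip, with 4.56% at 1 to 1.5 kb and 29.2% at 4.5 to 5 kb. The part of peak joining in this dip was not tested.

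**Figure D2:**
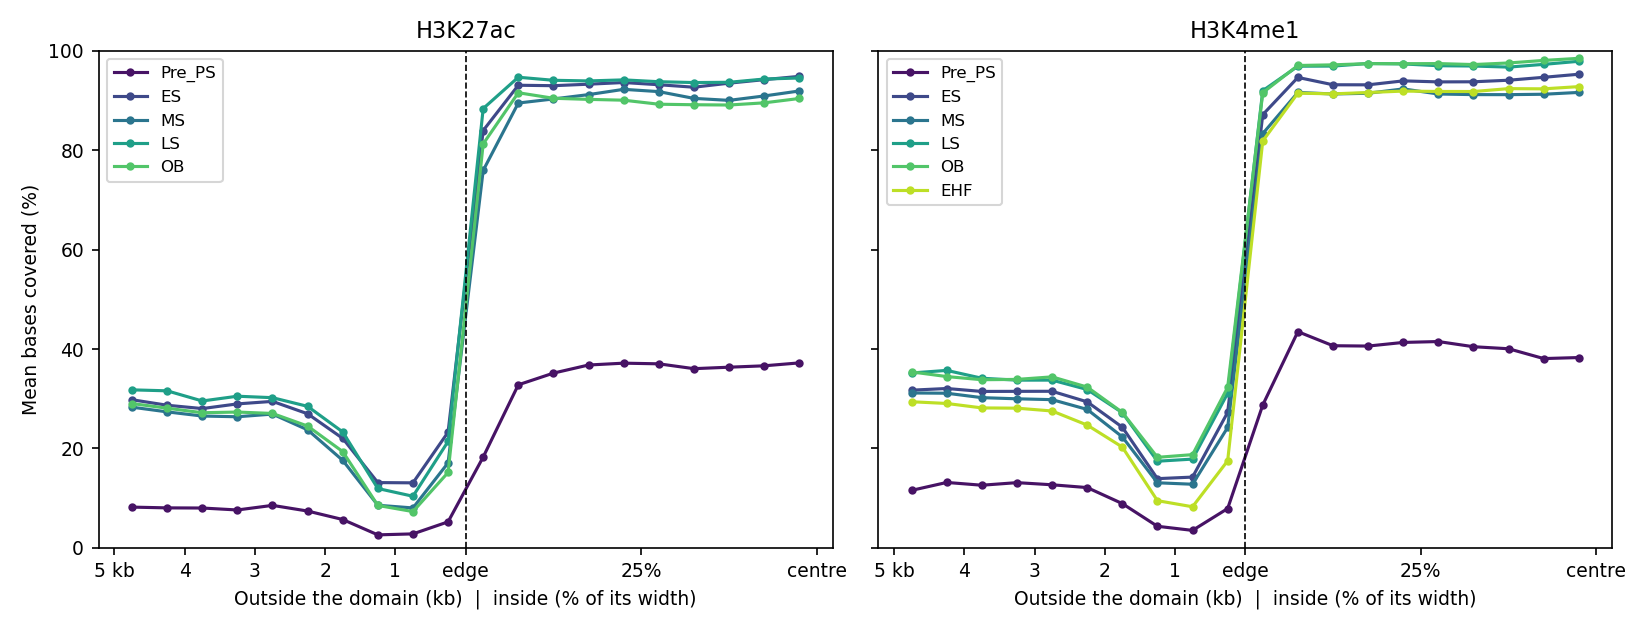
Mean percent of bases covered (y axis) in steps of 0.5 kb outside the domains and of 5% of their width inside, averaged over both sides of the 384 domains, for H3K27ac (left) and H3K4me1 (right). A line stands for each stage; Pre_PS stays at or below 37.2% for H3K27ac, and ES, MS, LS and OB step from 15.2 to 23.3% outside to 75.9 to 88.4% just inside.

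The domains touched 480 of 21631 protein-coding genes in RefSeq (2.22%). Of the 384 domains, 252 touched 1 gene, 102 touched 2, 22 touched 3 or more and 8 touched none. The touched genes were short, with a median length of 11 kb against 17.3 kb for all coding genes. In all, 73 genes lay wholly inside a domain and 136 domains lay wholly inside a gene. Genes small enough to be swallowed whole included Hes1, the main Notch target repressor, Snai1, a repressor of E-cadherin in the streak, Hand1, Nog, Id1, Foxj1, Gbx2 and Irx5. Several domains lay in 1 gene at Bahcc1 (4 domains), and at Bcor, Gse1, Kmt2d, Piezo1 and Plec (3 each), and 34 other genes had 2.

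Domains that held a gene start differed from those inside or behind genes. Starts were listed for all genes touched, and none lay inside, in 126 domains. The median fold was 13.7 in the 173 domains with a start and 7.09 in the 126 without. At Pre_PS, H3K27ac covered 40.7% of the bases of the former and 23.2% of the latter, and 11 of 173 against 38 of 126 had no base covered. Later the difference was small: 92.9% and 93.1% at ES, 91.6% and 86.4% at MS, 94.2% and 93.5% at LS, and 91.3% and 85.8% at OB. H3K4me1 at Pre_PS covered 42.7% and 38.4%, a narrower gap than that of H3K27ac. Within 1 kb of a listed start H3K27ac covered 57.6% of domain bases at Pre_PS, and 29.9% of those farther away. Fold moved with this difference, and its part was not tested. In the 139 domains with the start of a single gene, the domain reached a median of 2.01 kb upstream of the start and 4.85 kb downstream, and 99 of the 139 (71.2%) reached farther downstream.

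**Figure D3:**
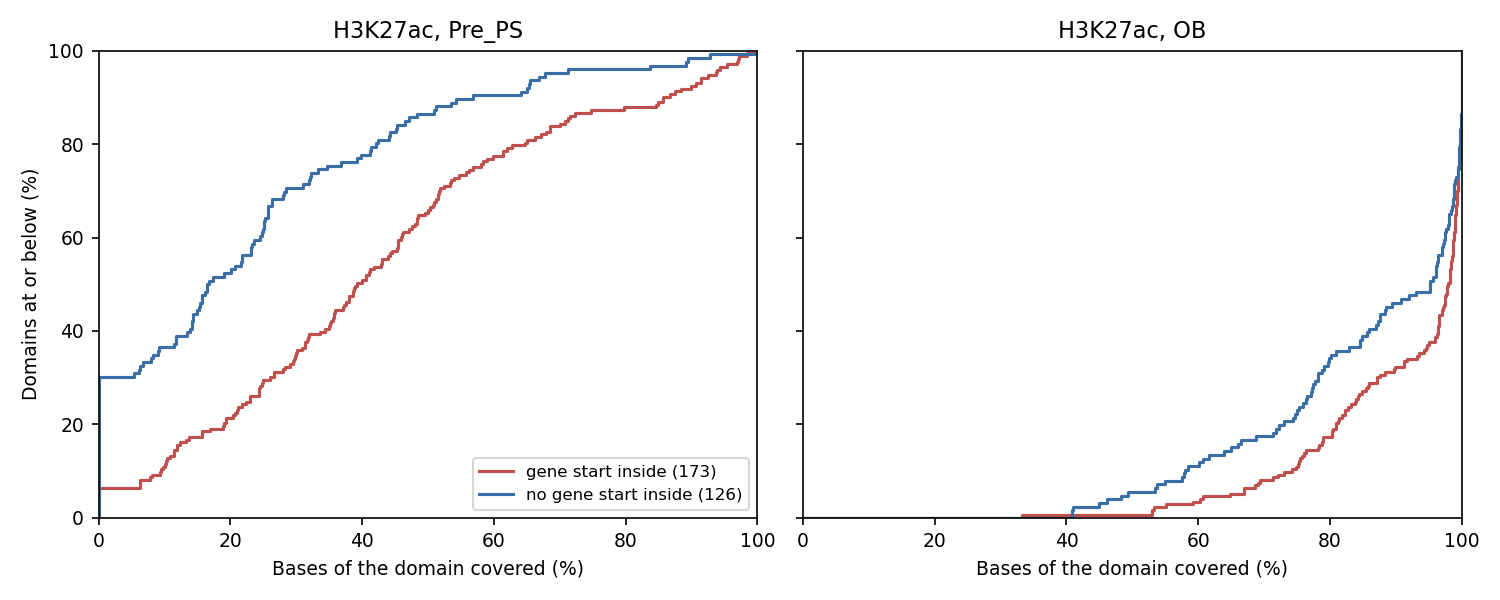
Cumulative percent of domains (y axis) by the share of their bases in H3K27ac peaks (x axis, percent) at Pre_PS (left) and OB (right), for the 173 domains with a listed gene start inside and the 126 without. At Pre_PS the curve of the domains without a start lies well to the left, with 38 of 126 at 0; at OB the curves run closer.

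The widest domain, 29.7 kb in Gse1 (chromosome 8, 120546925 to 120576576, mm10), lay inside the gene, which encodes a coiled-coil protein of the CoREST repressor group, and held no listed start. H3K27ac covered 24.6% of it at Pre_PS, 94.4% at ES, 94.7% at MS, 94.9% at LS and 89.5% at OB. The widest H3K27ac peak over it measured 2244, 17950, 17801, 24911 and 13162 bp in that order, and the widest H3K4me1 peak 29668 bp at LS and 30585 bp at OB. The site was thus nearly unbroken in the H3K4me1 lists of LS and OB and in more than 1 H3K27ac peak before EHF. Next came the domain over Pip5k1c, Cactin and Tbxa2r at 23.0 kb, which was met by H3K27ac peaks of up to 22465 bp at ES and 11580 bp at OB. The 17.5 kb domain of Zbtb7a (chromosome 10, 81134073 to 81151542) was covered over 45.9%, 99.1%, 97.6%, 100% and 96.0% from Pre_PS to OB by H3K27ac. Its widest H3K27ac peaks measured 16788 to 17967 bp at ES, MS, LS and OB, and its H3K4me1 peak at Pre_PS measured 11564 bp, the widest of that list. The 16.0 kb domain at Apc2, a relative of the Wnt antagonist Apc, had H3K27ac peaks of 15694 to 17560 bp at those stages. The domain over Dbp, Sphk2, Rpl18, Fam83e and Spaca4 (17.5 kb) touched 5 genes, and its widest H3K27ac peak measured 16675 bp at ES, 9571 at MS, 9713 at LS and 7180 at OB. Of the 12 widest, 11 were met by a broad H3K27ac peak at ES, MS, LS and OB and at no earlier stage, and 1, that of Dbp, at all 5.

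Notch signalling passes between touching cells, from Delta and Jagged ligands to Notch receptors, whose cleaved tail switches on Hes repressors. Of the 30 genes of the pathway list, 8 were touched (26.7%, against 2.22% of all coding genes). Among ligands, the Dll4 domain held the gene's start and was covered by H3K27ac over 58.3% at Pre_PS, 100% at ES, 96.3% at MS, 100% at LS and 96.4% at OB. Jag2 carried a 10.4 kb domain inside the gene, at 28.4% at Pre_PS and 100% at each later stage, and H3K4me1 covered 100% of it from ES to EHF. Among receptors, the Notch3 domain held the start and was covered over 43.9%, 74.0%, 95.8%, 100% and 98.2%, and at EHF H3K4me1 covered 52.3% of it, against 98.9% at OB. Notch4 stood at 32.2% and then at 99.5% or more. Lfng, which adds sugars to Notch receptors, stood at 95.3% at Pre_PS and at 97.6 to 99.3% later. Mib2, a ubiquitin ligase for the ligands, stood at 15.8% and then at 95.5 to 100%. The target repressor Hes1 stood at 26.0% and then at 97.9 to 99.7%.

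Hes7, the oscillating repressor of the presomitic mesoderm, had the largest difference in H3K27ac coverage between the mean of LS and OB and the mean of ES and MS among the listed genes, 30.2 percentage points. Its 5.74 kb domain (chromosome 11, 69117657 to 69123399), which holds the start shown above, was covered over 31.3% at Pre_PS, 66.3% at ES, 67.4% at MS, 97.5% at LS and 96.6% at OB. Its widest H3K27ac peak measured 1295, 3089, 3271, 5643 and 5548 bp. H3K4me1 covered 64.8%, 98.2%, 68.8%, 98.0%, 98.9% and 96.9% from Pre_PS to EHF. The ES and MS values of H3K27ac lay below those of LS and OB, whereas H3K4me1 was high at ES and low at MS.

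Of the Wnt pathway, 1 of 19 ligands (Wnt11), 0 of 17 receptors and 6 of 32 transducers and inhibitors were touched. Dvl1 and Dvl2, the Dishevelled proteins that relay the signal, had domains without a start. Dvl1 was covered over 21.7% at Pre_PS, 100% at ES, 81.7% at MS, 80.8% at LS and 79.7% at OB, and Dvl2 over 26.4%, 99.8%, 100%, 99.0% and 96.2%. Sp5, a zinc finger target of Wnt in the streak, was covered over 45.3%, 99.3%, 99.3%, 100% and 68.7%, so that OB stood lowest after Pre_PS. Tle3, a corepressor of Tcf factors, had a fold among the highest (26.8) and stood at 70.0% and then at 99.4 to 100%. Bcl9l, a coactivator of beta-catenin, carried 2 domains, which stood at 68.4 to 82.6% and at 76.5 to 100% from ES to OB.

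Of 46 genes of the TGF-beta, Nodal and BMP pathway 3 were touched: the ligand Bmp4, its secreted antagonist Nog and the target Id1. Bmp4 had no covered base at Pre_PS, then 72.7% at ES, 99.7% at MS, 99.5% at LS and 97.7% at OB, and its H3K4me1 ran 16.1%, 96.4%, 75.6%, 99.8%, 100% and 99.4%. Nog stood at 44.5% and then at 97.5 to 100%. Id1 stood at 58.9%, 82.7%, 96.6%, 67.1% and 97.6%, with LS and ES below MS and OB. Of 24 FGF genes, the receptor Fgfr3 and the feedback inhibitors Spry2 and Dusp4 were touched. Spry2 stood at 38.0% and Dusp4 at 22.2% at Pre_PS and both at 95.4% or more later, while Fgfr3 went from 0% to 100% at ES and 66.1% at MS, 100% at LS and 78.1% at OB. Of 23 Hedgehog and retinoic acid genes, Ihh, Ptch1, Rara and Rarg were touched, each with a start inside. Ptch1 was at 93.7% at Pre_PS, Rarg, a retinoic acid receptor, at 74.7%, Ihh, a ligand, at 68.5% and Rara at 33.6%. Of 25 Hippo genes only Amotl2, a binder of YAP, was touched.

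Factors of the germ layers were touched as follows: 7 of 32 of the neural ectoderm, 4 of 32 of mesoderm, 3 of 16 of surface ectoderm, 2 of 17 of the primitive streak, 2 of 17 of endoderm and node, 2 of 29 Hox and Cdx genes and 0 of 22 of epiblast and pluripotency. Irx3 (7.29 kb, start inside) was covered over 35.3% at Pre_PS, 99.0% at ES, 100% at MS, 99.4% at LS and 83.8% at OB. Irx5, its neighbour in the same homeobox family, lay wholly in an 11.9 kb domain at 46.8%, 98.6%, 96.6%, 88.9% and 97.1%. Six3, a factor of the forebrain field, stood at 66.9%, 98.7%, 98.6%, 97.5% and 75.9%, and Otx1, also of the forebrain and midbrain, at 40.5%, 99.3%, 96.9%, 100% and 85.5%. Meis2 stood at 62.7%, 95.3%, 96.9%, 98.2% and 82.8%. In Irx3, Six3, Otx1 and Meis2, and by a small margin in Gbx2 (93.5% against 95.1 to 97.0%), OB was the lowest stage after Pre_PS, whereas MS was lowest in Lmx1b at 85.9% and LS in Irx5. Over all 384 domains OB was also lowest after Pre_PS, with 89.3% of bases covered, next to 89.7% at MS. The share of all domains with OB lowest was not counted, so whether the pattern is particular to the neural genes was not tested. Among mesoderm genes, Hand1 stood at 7.12% at Pre_PS and at 97.4 to 99.6% later. Snai1 stood at 30.1% and at 96.5 to 100%. The Hoxb6 and Hoxb5 domain stood at 7.23%, 66.7%, 67.5%, 98.0% and 71.7%, with LS above the rest, and H3K4me1 at Pre_PS was at 0. There the mean of LS and OB exceeded that of ES and MS by 17.8 points, by 1.05 with the upper 50% of peaks in each list, and OB exceeded MS by 4.24.

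Genes of tissues that should be absent or were to be removed were touched in part. None of 16 visceral endoderm, 16 parietal endoderm and 30 adult tissue genes were touched, and 4 of 18 of extraembryonic ectoderm were: Tfap2c, Gata3, Bmp4 and Hand1, each of which also stands in an embryonic list. Tfap2c was covered over 67.0% and then 99.6 to 100%, and Gata3 over 6.34% and then 98.4 to 100%, so both were wide at stages with and without a stated dissection. Among chromatin genes, 3 of 31 H3K4 enzymes and remodellers (Kmt2b, Kmt2d, Setd1b), 2 of 30 Polycomb and heterochromatin genes (Kdm6b, Bcor) and 3 of 26 acetylation genes (among them Brd2 and Sirt6) were touched. Of 34 basement membrane and adhesion genes, 5 were (Lama5, Lamb2, Itgb4, Plec, Pxn), and of 37 zinc finger genes 9 were (24.3%): Zbtb7a, Zbtb7b, Zbtb17, Sall1, Casz1, Maz, Hic1, Bcl11a and Gse1, the last of which is not a zinc finger protein itself. Of 39 actin genes, 1 was (Rac3), of 43 ribosomal protein genes 1 (Rpl18) and of 26 housekeeping genes 1 (Eef2). Over all 27 lists, 68 of 671 genes (10.1%) were touched, against 2.22% of all coding genes. The lists were picked for developmental roles with earlier results of these data known, and gene length and neighbours differ between them, so no list is called particular.

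**Figure D4:**
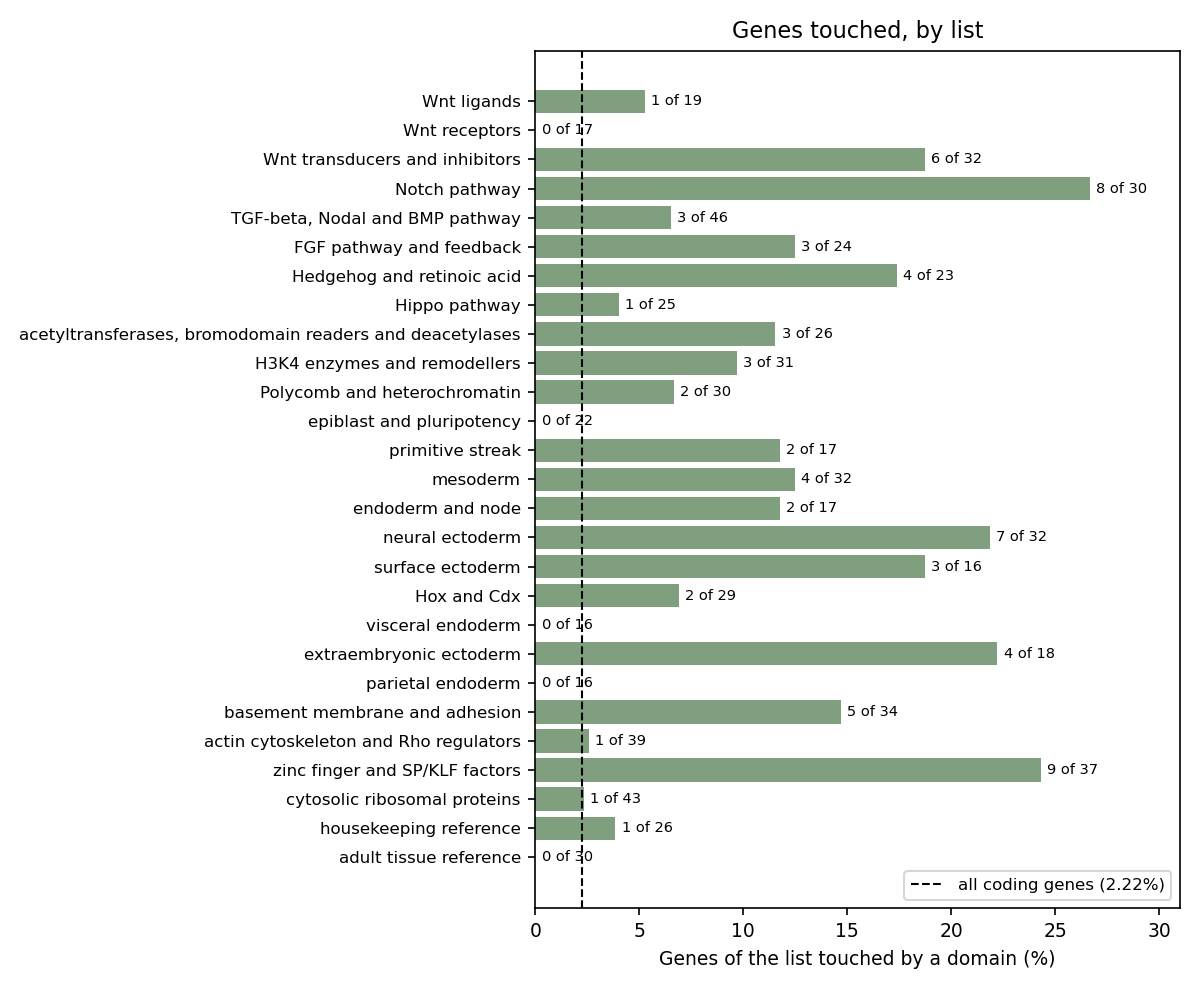
Percent of the genes of each of the 27 lists touched by a domain (x axis), with the counts at the bar ends and a dashed line at 2.22%, the share of all coding genes. The Notch list reaches 26.7% and the zinc finger list 24.3%; the Wnt receptor, epiblast, visceral endoderm, parietal endoderm and adult tissue lists are at 0.

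LS and OB were both above ES and MS in 76 domains (19.8%) and both below in 40 (10.4%), against 16.3% and 9.72% of all EHF H3K27ac peaks, so the shares lay near those of the whole list. The mean of LS and OB was within 10 percentage points of that of ES and MS in 307 domains (79.9%), at least 20 points higher in 9 (2.34%) and at least 20 points lower in 12 (3.12%). Of all EHF peaks, 62.9% were within 10 points, 17.6% at least 20 points higher and 7.32% at least 20 points lower. For H3K4me1, OB and EHF were both above ES and MS in 69 domains (18.0%) and both below in 24 (6.25%), against 15.0% and 8.66% of all these peaks. The largest positive H3K27ac difference was in Ttc7, a scaffold of a lipid kinase complex, at 38.8 points: the domain (chromosome 17, 87375592 to 87381454) was covered over 0% at Pre_PS, 70.2% at ES, 48.2% at MS, 98.6% at LS and 97.5% at OB. H3K4me1 covered more of it than H3K27ac at these early stages, at 78.0% at Pre_PS and 82.9% at ES. At Pre_PS the H3K4me1 list was the larger of the 2 (23.4 against 14.3 Mb), and 67.3% of its peaks were its weakest. Hes7 had the next largest positive H3K27ac difference.

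Nfix, a nuclear factor I gene, was covered over 25.7%, 72.0%, 76.3%, 100% and 98.6%, and H3K4me1 covered 98.1 to 100% of that domain from ES on. Cbln1, a cerebellin, was covered over 26.1%, 63.4%, 96.3%, 99.2% and 99.3%, so that ES was low and MS was not. The domain of Cyhr1 and Kifc2 stood at 78.6% and 76.1% at ES and MS and at 99.8% and 99.3% at LS and OB.

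The largest negative difference was in Wdr18. This domain, of a ribosome assembly factor gene, was covered over 99.9% at ES, 100% at MS, 77.5% at LS and 53.3% at OB, a difference of -34.6 points. Nfkb2 and Psd were at 99.6%, 98.5%, 98.6% and 44.9%, so OB alone was low. The same held for Foxp4, a forkhead factor, at 99.4%, 96.0%, 98.8% and 53.4%, and for Nphp4, a cilium protein gene, at 100%, 95.4%, 96.7% and 49.3%. Ccnd3, cyclin D3, was at 98.1%, 60.9%, 52.5% and 55.0%, so ES alone was high. Bcorl1, a relative of Bcor on the X chromosome, stepped from 98.0% and 95.9% to 76.5% and 75.4%, and Nab2, a corepressor of Egr factors, from 98.6% and 92.6% to 66.5% and 75.3%. All these domains were whole at EHF by definition, so where OB alone was low, the difference rests on 1 library. With the upper 50% of peaks in each list, the difference of Nphp4 went from -24.7 points to 0 and that of Ccnd3 from -25.7 to -11.7, and OB minus MS in Ccnd3 was -5.82. At OB, H3K4me1 covered 98.7 to 100% of the domains of Wdr18, Nfkb2, Foxp4, Nphp4 and Nab2, but 65.1% of that of Ccnd3 and 74.6% of that of Bcorl1.

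**Figure D5:**
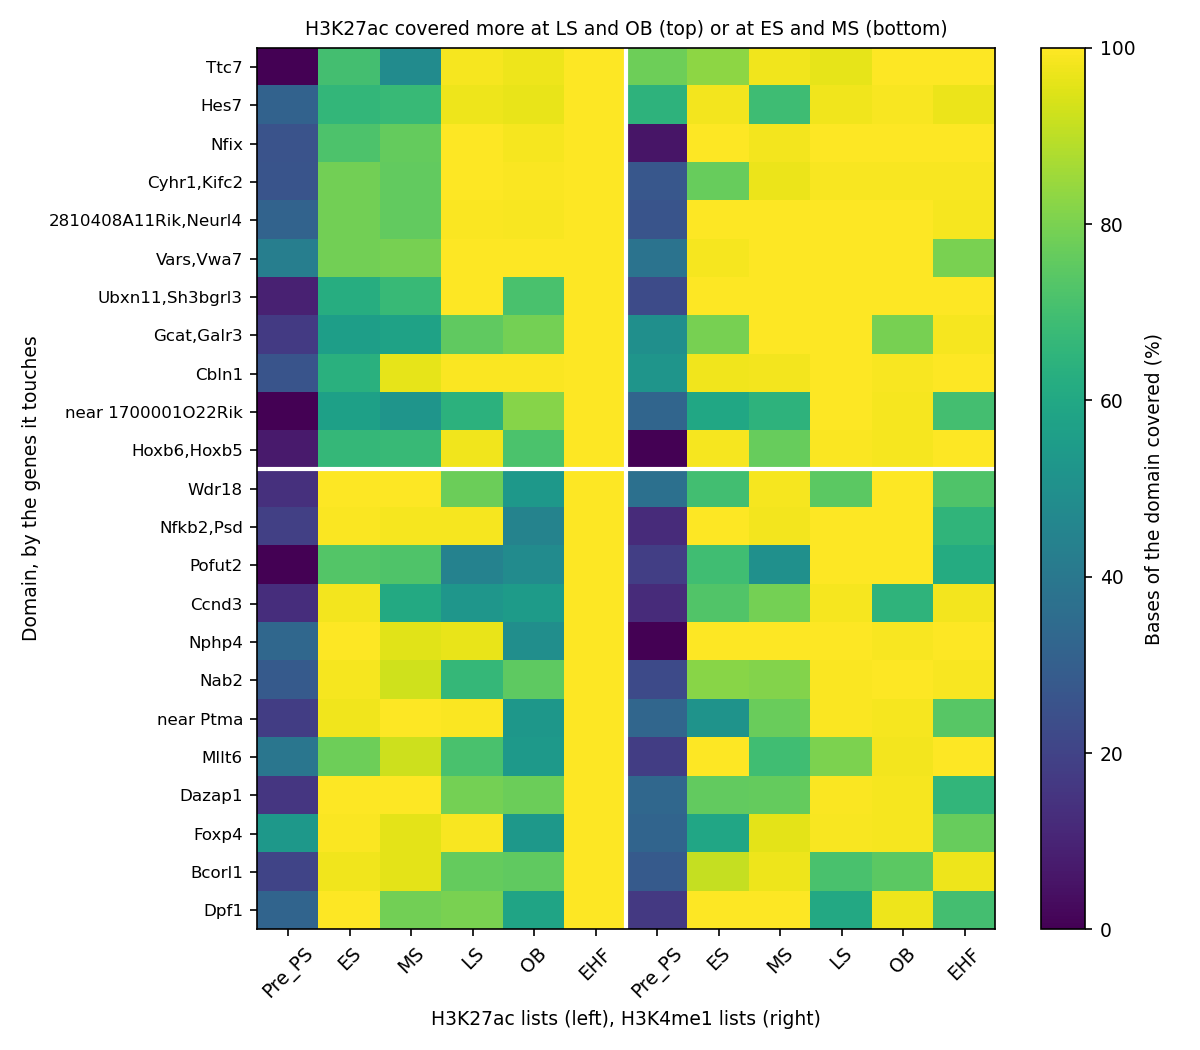
Percent of bases covered (colour) in the 6 H3K27ac and 6 H3K4me1 lists for 11 of the 12 domains in which H3K27ac at LS and OB stood highest above ES and MS (top) and the 12 in which it stood lowest below (bottom). The EHF column of H3K27ac is 100% by the choice of domains; H3K4me1 at OB is near 100% in many rows of both blocks, such as Ttc7 (100%) and Nab2 (100%).

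Some domains had a low mean coverage over the middle stages. The lowest mean over ES, MS, LS and OB was in the 5.91 kb domain of Il17c and Cyba, at 99.1%, 6.99%, 61.8% and 33.3%, followed by Sox13, an SRY-related factor, at 48.7%, 42.8%, 72.8% and 40.9%. A domain of Ahdc1 was at 63.3%, 41.2%, 81.5% and 40.9%, and Dgkz at 51.1%, 66.5%, 69.5% and 40.9%. Syt7, a synaptotagmin, was at 50.4%, 56.5%, 53.2% and 75.2%, and the domain of Fasn, fatty acid synthase, and Ccdc57 at 45.3%, 61.7%, 57.1% and 76.4%. Of these 6 domains, 4 had no base covered at Pre_PS, against 58 of all 384 domains (15.1%) and 65.2% of all EHF peaks. Btbd2 and Pofut2 had lower means than Fasn and are not among the 6. At Pre_PS, H3K27ac covered 45.2% of the Btbd2 domain and 0% of that of Pofut2. Whether low coverage at the middle stages goes with low coverage at Pre_PS was not tested.

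H3K4me1 at EHF itself covered all bases of 87 domains (22.7%, against 23.8% of all EHF peaks) and at least 50% of 378. The lowest was in Kmt2d, which encodes an enzyme that writes this very mark: H3K4me1 covered 23.9% of a 7.02 kb domain at EHF, after 95.0% at LS and 95.4% at OB, and 29.3%, 69.4% and 58.7% at Pre_PS, ES and MS. The deposited fold of H3K27ac there was 3.85, the lowest of all domains. The other 2 domains of Kmt2d were covered over 88.1% and 78.9% by H3K4me1 at EHF. Atg2a, an autophagy gene, stood at 39.7% after 100% at OB, Fhl3, a LIM protein gene, at 40.1% after 100%, and Eef2 and Dapk3 at 49.1% after 99.9%. Among the widest of the fully covered domains were those of Arid3a (13.8 kb), Plekhh3 and Ccr10 (11.7 kb), Ltbp4, a binder of latent TGF-beta, Jag2 (10.4 kb) and Zfp503 (9.78 kb). The EHF H3K4me1 list covered less of the genome than those of LS and OB (39.1 against 51.3 and 51.0 Mb), and the part of list size in these values was not tested.

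The domains were not spread evenly. Windows of 1 Mb with a domain numbered 193, and the 13 windows with at least 5 held 102 domains (26.6%). Windows with a domain had a median of 22 coding genes, and those with a coding gene and no domain had 6. On chromosome 10, from 79 to 82 Mb, 32 domains (8.33%) lay in a stretch with 0.661% of the coding genes and 0.966% of the EHF H3K27ac peaks; Arid3a, Wdr18, Atp5d, Midn, Apc2, Dazap1, Btbd2, Zbtb7a, Eef2 and Pip5k1c lie there. Chromosome 11 from 120 to 121 Mb held 14, with 4 in Bahcc1, and chromosome 15 from 76 to 77 Mb held 10, with 3 in Plec. Domains made up 2.44% of the EHF H3K27ac peaks of chromosome 10 and 2.11% of those of chromosome 17, but 0.121% of those of chromosome 18, 0.194% of chromosome 13 and 0.196% of chromosome 6. Gene density moved with the number of domains, and its part was not tested.

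Of the 37 mature sequences of the microRNA hairpins in domains, only miR-7032-5p and miR-6990-5p shared a seed, CCAGGGU. H3K27ac covered the Aatk domain over 21% at Pre_PS and 98.4 to 100% later, the Dalrd3 domain over 11.9% and then 100% at each of the 4 stages, and the Eml2 domain with Mir330 over 98.4% at Pre_PS and 99.2 to 100% later. The Ctdsp1 domain, which holds Mir26b, a microRNA within an intron of a phosphatase gene, stood at 19.4%, 98.1%, 81.3%, 98.4% and 84.9%. The domain near Ythdf1 with Mir124a-3, a neural microRNA, touched no coding gene and stood at 64.7%, 98.1%, 97.6%, 99.7% and 100%, with H3K4me1 at 99.0 to 100% from ES on. The 9.93 kb domain with Mir3089 stood at 0%, 56.9%, 52.0%, 64.3% and 81.7%, with LS and OB 18.5 points above ES and MS.

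A single domain stood apart by its height. On chromosome 17 from 39842893 to 39849002 (6.11 kb), the deposited H3K27ac fold at EHF was 347.5, and the next highest was 30.9 at Brd2 and H2-DMa. It was covered over 95.5 to 97.8% in the 5 other H3K27ac lists and over 95.5 to 98.4% in the 6 H3K4me1 lists, the Pre_PS lists included. The nearest coding gene, Esp38, lies 101517 bp away. The gene table places Rn18s-rs5, a pseudogene of 18S ribosomal RNA, and the long non-coding RNA AY036118 over it, and ribosomal RNA genes stand in many copies in the genome, so reads of other copies cannot be told apart from reads of this site. The domain on the unplaced sequence was 5110 bp wide with a fold of 6.78, and H3K27ac covered 100%, 75.3%, 68.6%, 100% and 100% of it from Pre_PS to OB.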

How the data were processed

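The deposited files were 12 broad peak lists on mm10, 1 for each of 2 marks and 6 stages, each pooling the single cells of its stage. Per the submitters' processing notes, Bowtie2, Picard, MACS2 and deepTools were used, with no version or setting stated there. For each peak the authors deposited a fold (the ratio of pileup to local background), −log10 of the p and q values, and a score, which repeats the q value and was not used. Read totals are not in the lists, so the depth of each library is unknown. The background at the weakest peaks stood in for it. It was solved from the lowest fold and p value of each list, for a whole number of fragments as pileup. The fold was taken as pileup plus 1 over background plus 1, and the p value as that of a Poisson distribution. The lists hold no counts, so no count test was made.

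Domains were EHF H3K27ac peaks of 5000 bp or more. Coverage is the percent of a domain's bases in peaks of another list. A gene was touched if it shared at least 1 base with a domain (RefSeq, GRCm38.p6, the assembly of mm10), and listed starts covered 79.9% of coding genes. A domain with no start inside that touched a gene without a listed start was counted as not listed (77 domains). A few of the named domains and list genes are not reported here. Named domains were the 12 widest, the 12 lowest in mean coverage, the 12 with the largest and the 12 with the smallest difference between LS and OB and ES and MS, the extremes of H3K4me1 at EHF, the narrowest members and the list genes. The members and the gene lists were chosen with earlier results of these data known. With 1 library for each stage and mark, differences are descriptions. Python 3.11.15, numpy 2.4.6, pandas 2.3.3, scipy 1.17.1 and matplotlib 3.10.9 were used, and the overlap code was checked on simulated data. Alternatives were the width limit, the upper 50% of peaks by −log10 q, peaks above the floor, a limit of 80% coverage, MS against OB, and, chosen after seeing the data, the same number of peaks in every list. Wilson intervals cover counting error only.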

Additional observations from a re-analysis of the deposited data

How the results depend on the processing

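A width limit of 4000 bp gave 727 domains and 8000 bp gave 93, which touched 144 genes. With 8000 bp, 20.4% of domains were at least 50% covered by H3K27ac at Pre_PS and 100% at ES, MS, LS and OB, and 100% by H3K4me1 at ES and MS. With 4000 bp, H3K27ac shares were 98.1% at ES and 95.7% at MS, and the H3K4me1 share at Pre_PS was 33.6%. With the upper 50% of peaks by −log10 q, H3K27ac shares were 12% at Pre_PS, 89.1% at ES, 73.4% at MS, 92.7% at LS and 86.5% at OB, and H3K4me1 shares 93.5% at ES, 88.0% at MS, 95.8% at LS, 96.4% at OB and 79.4% at EHF. With a limit of 80% coverage, H3K27ac shares were 8.59% at Pre_PS, 83.3% at ES, 76.8% at MS, 85.2% at LS and 76.0% at OB, and H3K4me1 shares 4.43%, 85.7%, 78.9%, 93.2%, 94.3% and 81.5% from Pre_PS to EHF. With 13398 peaks in each list, an alternative chosen after seeing the data, H3K27ac shares were 63.0% at ES, 65.4% at MS, 64.3% at LS and 65.1% at OB, and H3K4me1 shares 59.6% at ES, 60.9% at MS, 69.3% at LS, 68.8% at OB and 62.2% at EHF, beside 247 of the 384 domains held by the EHF H3K27ac list itself. Without the weakest peaks the H3K4me1 share at Pre_PS was 24.0%. Domains met by no other broad peak numbered 10 with a limit of 4000 bp for that peak. In every one of these settings the Pre_PS shares stayed below those of ES, MS, LS and OB. Of the 24 domains named for their difference between LS and OB and ES and MS, 2 changed sign with the upper 50% of peaks: near Ptma to +21.1 and Dazap1 to +2.31 points. The difference was 0 for Pofut2 and Nphp4 there. The cause of these changes was not tested. No paired analysis was possible because each stage and mark had 1 library, and for the same reason no replicate could be left out.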
